A study of Mus musculus with 8 samples.

Results

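The comparison described here asks whether costimulation blockade changed gene expression by the same amount in alloreactive CD8 and CD4 T cells. For each probe set the blockade effect (blockade minus untreated) in CD8 cells was set against the blockade effect in CD4 cells, and the CD8 effect minus the CD4 effect is called the subset difference. It draws on all 8 of the 8 arrays of the series and on 45037 probe sets. A positive subset difference means that blockade lowered a transcript less, or raised it more, in CD8 cells than in CD4 cells.

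The cells came from mixed lymphocyte cultures, where T cells of one mouse strain meet and respond to irradiated cells of another. CFSE-labelled C57BL/6 splenocytes (200000 per well, 5 µM dye) were the responders, and FVB/N splenocytes irradiated with 30 Gy (800000 per well) were the stimulators, so every group carried both strains. The 4 groups were CD8 cells under blockade, untreated CD8 cells, CD4 cells under blockade and untreated CD4 cells, with 2 Affymetrix Mouse430_2 arrays each. Blockade was 50 µg each of anti-CD40L, anti-LFA-1 and CTLA4-Ig, and untreated wells received none of them. After 5 days, labelled CD4 or CD8 cells were sorted (300000 cells), and 4 mice per group are stated. No label states that replicate arrays stem from separate cultures, or whether CD8 and CD4 cells were sorted from the same wells. The p-values therefore measure only how far these particular arrays spread, possibly for technical reasons.

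As background, a T cell needs a costimulatory signal beside its antigen receptor signal to divide and to acquire effector functions. CTLA4-Ig binds CD80 and CD86 and keeps them from CD28, anti-CD40L blocks the help that CD4 cells give to antigen-presenting cells, and anti-LFA-1 blocks an adhesion molecule of the contact between both cells. Activated T cells express the high-affinity interleukin-2 receptor, whose signal through STAT5 induces feedback inhibitors of the SOCS family. CD8 cells are often described as needing less CD28 and CD40L costimulation than CD4 cells.

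The deposited values are relative to the row median of each probe set, so 0 is that median and no signal level is known. They were taken as log2 values, where 1 unit is a 2-fold difference, although the files and labels do not state the log base. Whether a low group lay at the array's background could therefore not be read. Spike-in controls stood apart on 2 arrays. The median of 18 hybridization and of 15 poly-A control probe sets was 0.92 and 0.79 on CD8 blockade array 1, and -0.23 and -0.44 on CD4 untreated array 2, against -0.18 to 0.19 on the other arrays. None of the 18 T lineage genes looked for could be named in the files, so the sorted subsets were not checked against their defining markers. Gene names were available for 289 genes, all from the authors' deposited list of probe sets, which was selected on these arrays by a test whose compared conditions are left blank in the file. The direction of the blockade effect in named genes is therefore no independent evidence.

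The test found a different response in the 2 subsets for few transcripts, nearly all of them with a smaller fall or a rise in CD8 cells. The subset difference passed the test (limma, Benjamini-Hochberg adjusted p of at most 0.05) for 28 of 45037 probe sets, or 0.0622%, of which 26 were positive (0.0577%) and 2 negative (0.00444%). By comparison, blockade changed 1016 probe sets in CD8 cells (2.26%) and 1650 in CD4 cells (3.66%) in the same fit. At an unadjusted p under 0.05 the subset difference had 2253 probe sets, 5% of those tested, which is the share expected at this threshold if no probe set differed. The calls were also few enough to depend on single arrays: leaving out 1 array gave 5 to 26 calls, and leaving out both arrays with unusual spike-ins gave 0, with 2130 at an unadjusted p under 0.05. Per array left out, there were 11 calls without CD8 blockade array 1, 9 without array 2, 18 without CD8 untreated array 1, 14 without array 2, 5 without either CD4 blockade array, 26 without CD4 untreated array 1 and 11 without array 2.

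All 26 positive probe sets fell in CD4 cells (2.16% of all probe sets did), by a median of 2.83 log2 units, and the median change in CD8 cells was -0.31. These changes are the terms of the difference itself and are given as its description. In CD8 cells 9 of the 26 also fell (1.32% of all probe sets), 14 did not pass the test, and 3 rose (0.937%). Under blockade, 4 of the 26 were lower in CD8 than in CD4 cells (1.11% of all probe sets), 10 did not pass, and the others were higher (1.08%). Untreated, 18 of the 26 were lower in CD8 cells (1.43% of all probe sets), 4 did not pass, and 4 were higher (1.08%). In the most frequent pattern, 10 of the 26, the subsets did not differ past the threshold under blockade and CD4 cells were the higher untreated.

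**Figure D1:**
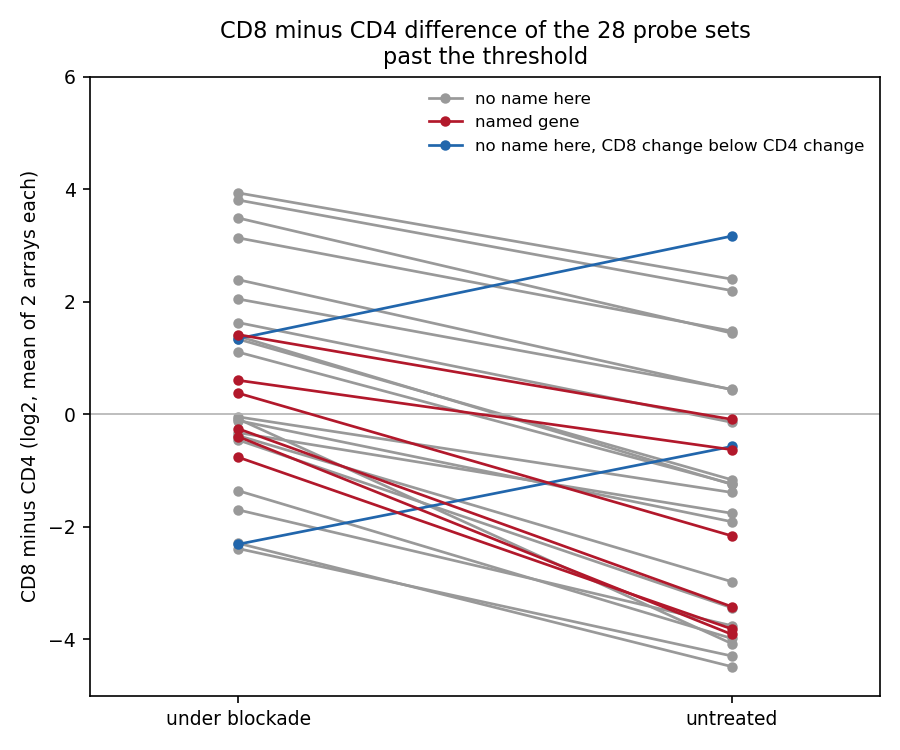
CD8 minus CD4 (vertical axis, log2, means of 2 arrays each) under blockade and untreated for the 28 probe sets past the test, each a line. The 26 positive probe sets, named genes in red and others in grey, lie higher under blockade than untreated, and the 2 negative ones, in blue, lie lower.

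Dnah7b and Itih5 had the largest subset differences among the named genes. Dnah7b encodes a heavy chain of axonemal dynein, the motor of cilia, and Itih5 encodes a heavy chain of the inter-alpha-trypsin inhibitor family, which binds hyaluronan in the extracellular matrix. Dnah7b stood at -0.89 and -0.84 on the CD8 blockade arrays and 0.55 and 0.34 on the CD8 untreated arrays, against -0.34 and -0.59 on the CD4 blockade arrays and 4.00 and 4.71 on the CD4 untreated arrays. Itih5 stood at -0.94 and -0.95 in CD8 cells under blockade and 0.36 and 0.63 in untreated CD8 cells, against -0.52 and -0.36 in CD4 cells under blockade and 3.92 and 4.30 in untreated CD4 cells. For both genes the untreated CD4 arrays alone were high, and the other 6 arrays lay between -0.95 and 0.63.

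Dnah7b fell in both subsets, with changes of -1.31 in CD8 cells and -4.82 in CD4 cells, a subset difference of 3.51 ± 0.29 (SE, 95% interval 2.84 to 4.18, adjusted p = 0.0076). Itih5 fell in both subsets, with changes of -1.43 in CD8 cells and -4.54 in CD4 cells, a difference of 3.11 ± 0.21 (2.63 to 3.58, adjusted p = 0.0031), and its 2 probe sets gave 3.16 and 3.05. Under blockade CD8 minus CD4 was -0.40 for Dnah7b and -0.51 for Itih5, neither past the threshold, while untreated it was -3.91 and -3.62. Over the 8 arrays the named genes most like Dnah7b were Itih5 (Pearson r = 0.996), Ifitm3 (0.968) and Mbnl3 (0.967), given as a description over arrays that share the 4 groups. Itih5 passed the test in 13 of 15 alternative settings, with each single array left out among them, and its difference lay between 2.19 and 3.30. Dnah7b passed in 9 and lay between 2.53 and 3.87; its adjusted p was 0.062 and 0.070 without CD8 blockade array 1 or 2 and 0.066 and 0.082 without CD4 blockade array 1 or 2. Without both arrays with unusual spike-ins neither passed, at 2.91 for Itih5 and 3.18 for Dnah7b (adjusted p = 0.14 for both).

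**Figure D2:**
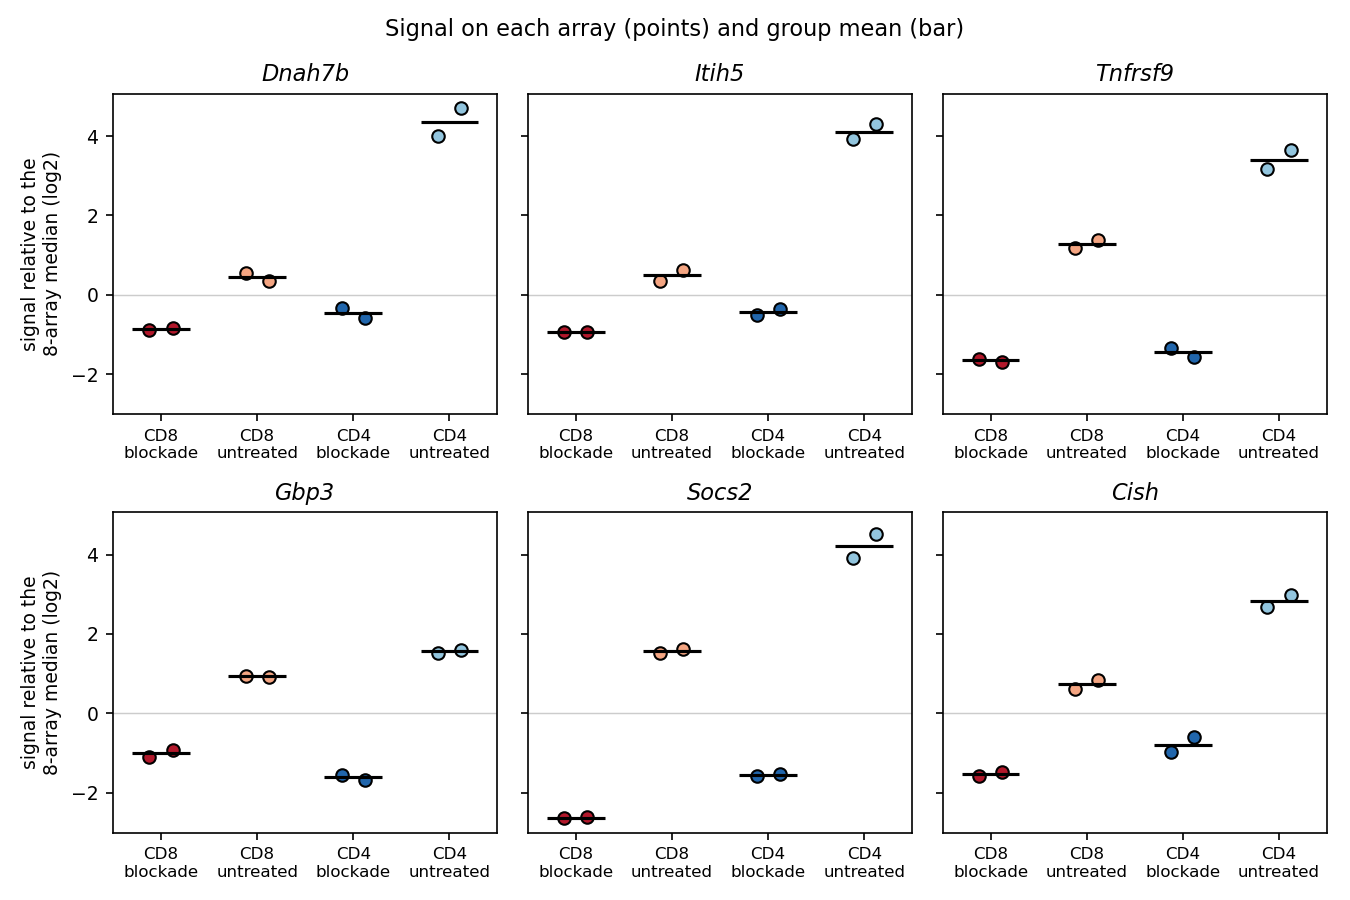
Value on each of the 8 arrays (points, log2 relative to the 8-array median) and group mean (bar) for Dnah7b, Itih5, Tnfrsf9, Gbp3, Socs2 and Cish, in the 4 groups. The CD4 untreated arrays are the highest in every panel, and for Dnah7b and Itih5 the other 6 arrays lie between -0.95 and 0.63.

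Among receptors of activated T cells, Tnfrsf9 fell less in CD8 than in CD4 cells. Tnfrsf9 encodes 4-1BB, a costimulatory receptor induced on T cells after activation. It stood at -1.61 and -1.69 in CD8 cells under blockade and 1.17 and 1.38 in untreated CD8 cells, against -1.33 and -1.58 in CD4 cells under blockade and 3.17 and 3.65 in untreated CD4 cells. The blockade arrays of both subsets were alike, and the untreated CD4 arrays were the highest. Tnfrsf9 fell in both subsets, with changes of -2.93 in CD8 cells and -4.86 in CD4 cells, a subset difference of 1.94 ± 0.23 (1.40 to 2.47, adjusted p = 0.043). Its probe sets gave 2.54 (adjusted p = 0.013) and 1.34 (adjusted p = 0.39), and the gene passed in 3 of 15 alternative settings. With 1 array left out it passed only without CD4 untreated array 1 (adjusted p = 0.032), and over all settings the difference lay between 1.06, after quantile normalization, and 2.17.

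Tnfrsf9 was 1 of the 4 named genes of 289 past the test, against 0.0578% of all 44951 features once each gene's listed probe sets were averaged. Of the 6 named activation receptors, the other 5 did not pass. Their intervals all lay within 1 log2 unit of 0, as for 95.6% of all features and 64.4% of named genes. The differences were 0.28 for Cd274, the ligand PD-L1, 0.07 for Cd86, a ligand of CD28, -0.16 for Cd69, an early activation marker, -0.06 for Tfrc, the transferrin receptor, and -0.32 for Treml2, a receptor of the TREM family. All 6 fell in CD8 cells (1.14% of all features did) and in CD4 cells (2.02%). Tfrc, for example, stood at -0.81 and -0.62 in CD8 cells under blockade and 0.35 and 0.97 in untreated CD8 cells, against -0.45 and -0.35 in CD4 cells under blockade and 0.66 and 1.17 in untreated CD4 cells.

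Most of the interleukin-2 and STAT5 genes that could be named, 9 of 24 looked for, lay on the positive side without passing the test. Of 9 named genes, 0 passed by limma with adjustment over all features, 7 had a positive difference and 2 a negative one, and the median was 1.11, against 0.0019 over all features. After quantile normalization 6 were positive and the median was 0.26. Over all named genes the median was 0.12. Array-by-array changes did not overlap between subsets for 8 of the 9, with CD8 above CD4 in 7, while 16.9% of all features did not overlap and 8.6% had CD8 above. Of the 289 named genes, 81 (28%) did not overlap and 66 had CD8 above. Il2ra, which encodes the receptor chain CD25, had the largest difference at 1.81 (0.79 to 2.84, adjusted p = 0.59). It stood at -1.43 and -1.22 in CD8 cells under blockade and 0.87 and 1.27 in untreated CD8 cells, against -0.87 and -0.996 in CD4 cells under blockade and 2.69 and 3.86 in untreated CD4 cells. The untreated CD4 arrays of Il2ra differed by more than 1 log2 unit, and without CD4 untreated array 1 its difference was 2.40 with an adjusted p of 0.041.

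Socs2, Cish and Socs1 encode feedback inhibitors of cytokine receptor signalling. All 3 had positive differences with changes that did not overlap, against 8.6% of all features and 66 of 289 named genes with CD8 above. Socs2 stood at -2.65 and -2.62 in CD8 cells under blockade and 1.53 and 1.62 in untreated CD8 cells, against -1.58 and -1.53 in CD4 cells under blockade and 3.93 and 4.51 in untreated CD4 cells. Its difference was 1.56 (1.02 to 2.11, adjusted p = 0.11), past the threshold only without CD4 untreated array 1 (1.86, adjusted p = 0.015) and -0.14 after quantile normalization. One of its probe sets can bind transcripts of related genes. Cish stood at -1.58 and -1.48 in CD8 cells under blockade and 0.61 and 0.85 in untreated CD8 cells, against -0.98 and -0.61 in CD4 cells under blockade and 2.69 and 2.97 in untreated CD4 cells. Socs2 and Cish thus shared one order, with untreated CD4 cells the highest and CD8 cells under blockade the lowest. The difference of Cish was 1.37 (0.87 to 1.87, adjusted p = 0.14).

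Socs1 had another order. It stood at -0.56 and -0.86 in CD8 cells under blockade and 0.99 and 0.77 in untreated CD8 cells, against -1.93 and -2.03 in CD4 cells under blockade and 0.82 and 0.61 in untreated CD4 cells. Under blockade CD8 cells were the higher, with CD8 minus CD4 at 1.27 (adjusted p = 0.0021), and untreated it was 0.16 (adjusted p = 0.77). Its subset difference was 1.11 (0.67 to 1.55, adjusted p = 0.21), with 1.51 (adjusted p = 0.014) for one probe set and 0.72 for the other. The subsets thus stood apart in the blockade groups for Socs1 and most in the untreated groups for Socs2 and Cish. Lif, a cytokine of the interleukin-6 family, had a difference of 1.44 (adjusted p = 0.73). Il7r, the interleukin-7 receptor and a marker of resting T cells, rose in both subsets and had a difference of -0.26 (-0.55 to 0.03), and Bcl2, an inhibitor of apoptosis, had 0.26 (-0.07 to 0.59).

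**Figure D3:**
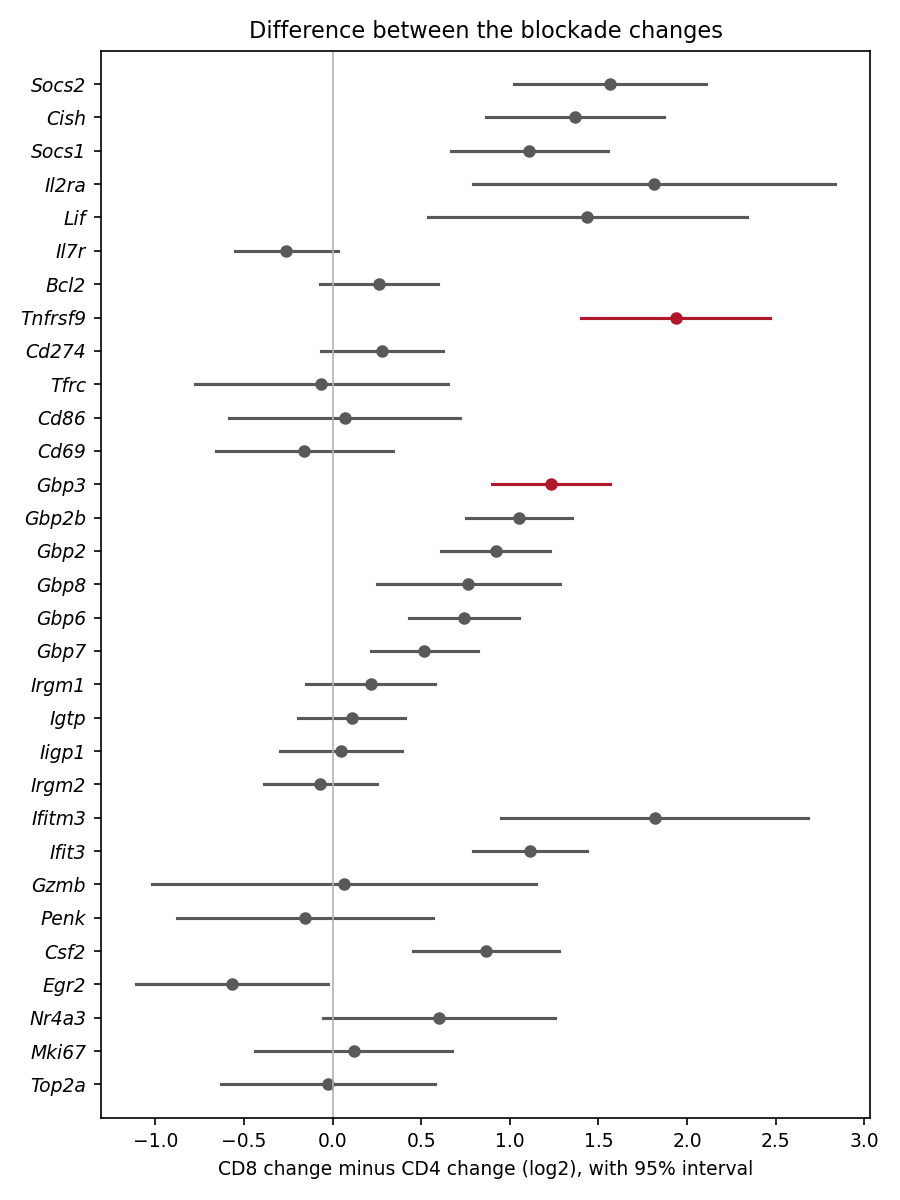
Subset difference (horizontal axis, CD8 change minus CD4 change, log2; points) with its 95% interval (lines) for genes named in the text. Tnfrsf9 and Gbp3, in red, passed the test, and the intervals of the 4 immunity-related GTPases include 0.

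The guanylate-binding proteins, interferon-induced GTPases that attack the vacuoles of intracellular pathogens, fell less in CD8 than in CD4 cells in their point estimates, with 6 of 6 differences positive (median 0.84, range 0.52 to 1.23) and 6 of 6 not overlapping, against 8.6% of all features with CD8 above. Of these 6, 1 passed the test, against 0.0578% of all features. The 4 immunity-related GTPases, which act on the same vacuoles, had a median difference of 0.08 (-0.07 to 0.21), and 1 of 4 did not overlap, against 16.9% of all features. Among the 289 named genes, from which both families come, 81 (28%) did not overlap, 66 of them with CD8 above. The median difference of the named genes that fell was 0.26. Both families were gathered after their values were seen, and the difference between them was not tested. All 6 guanylate-binding differences were positive in each of the 15 alternative settings, down to 0.076 after quantile normalization. The replicate block, array weights, robust and unmoderated tests left the estimates unchanged, so these settings could not change a sign.

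Gbp3 passed the test. It stood at -1.11 and -0.92 in CD8 cells under blockade and 0.95 and 0.92 in untreated CD8 cells, against -1.56 and -1.68 in CD4 cells under blockade and 1.53 and 1.60 in untreated CD4 cells. It fell in both subsets, with changes of -1.95 in CD8 cells and -3.18 in CD4 cells, a subset difference of 1.23 ± 0.15 (0.90 to 1.56, adjusted p = 0.041). It passed in 3 of 15 alternative settings and with no single array left out (adjusted p 0.093 to 0.26), and the difference lay between 0.75, after quantile normalization, and 1.32. The order of the subsets was not the same at both treatments: CD8 minus CD4 was 0.61 under blockade and -0.63 untreated, both past the threshold. Gbp2b stood at -1.25 and -1.35 in CD8 cells under blockade and 1.31 and 1.25 in untreated CD8 cells, against -2.04 and -2.06 in CD4 cells under blockade and 1.63 and 1.55 in untreated CD4 cells. Its difference of 1.05 had an adjusted p of 0.054, and those of Gbp2 (0.92), Gbp8 (0.77), Gbp6 (0.74) and Gbp7 (0.52) did not pass either.

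Among the immunity-related GTPases, Iigp1 changed by nearly the same amount in both subsets. It stood at -2.72 and -2.81 in CD8 cells under blockade and 2.44 and 2.25 in untreated CD8 cells, against -2.39 and -2.46 in CD4 cells under blockade and 2.80 and 2.67 in untreated CD4 cells. Iigp1 fell in both subsets, with changes of -5.11 in CD8 cells and -5.16 in CD4 cells, and the 95% interval of the difference was -0.30 to 0.39. Quantile normalization was applied to the row-centred values and gives them the same distribution on every array. After this step the difference of Iigp1 became -1.67 with an adjusted p of 0.020, and its cause was not tested. The differences of Irgm2 (-0.46), Igtp (-0.25) and Irgm1 (-0.16) were negative as well. Without that step they were -0.07, 0.11 and 0.21.

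Promoters are shown for a gene of each kind: Gbp3, which passed the test, Igtp, whose interval lay within 0.5 log2 units of 0, and Cish, which did not pass. They are RefSeq sequences of GRCm38.p6, 300 bases each, on the plus strand at chr3:142559794-142560093 for Gbp3, chr11:58199306-58199605 for Igtp and chr9:107296409-107296708 for Cish. Capitals mark the interferon-stimulated response element core in Gbp3 and Igtp, which is GAAA, any 2 bases and GAAA again, and the STAT motif TTCNNNGAA in Cish, searched on both strands.
Gbp3: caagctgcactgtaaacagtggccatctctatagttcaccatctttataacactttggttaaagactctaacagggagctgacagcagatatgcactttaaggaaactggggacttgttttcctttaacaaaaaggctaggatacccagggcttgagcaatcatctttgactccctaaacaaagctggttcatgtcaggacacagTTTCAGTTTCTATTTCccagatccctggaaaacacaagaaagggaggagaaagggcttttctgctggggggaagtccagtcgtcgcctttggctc
Igtp: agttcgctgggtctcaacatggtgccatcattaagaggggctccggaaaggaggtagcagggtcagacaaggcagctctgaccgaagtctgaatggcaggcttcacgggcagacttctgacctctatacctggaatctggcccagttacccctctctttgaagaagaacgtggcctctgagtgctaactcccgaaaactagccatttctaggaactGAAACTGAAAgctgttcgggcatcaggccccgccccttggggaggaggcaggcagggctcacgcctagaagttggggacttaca
Cish: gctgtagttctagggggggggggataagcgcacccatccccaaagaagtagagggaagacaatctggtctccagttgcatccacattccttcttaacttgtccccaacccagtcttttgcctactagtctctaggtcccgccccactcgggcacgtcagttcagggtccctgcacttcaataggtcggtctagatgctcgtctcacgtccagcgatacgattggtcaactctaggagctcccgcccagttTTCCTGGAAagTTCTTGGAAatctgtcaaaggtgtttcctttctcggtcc
In Gbp3 2 matches overlap on the opposite strand, and in Cish 2 matches stand side by side.

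The response element core was found in 4 of 4 guanylate-binding genes with a promoter sequence and in 3 of 3 immunity-related GTPase genes. A gene counted if any of its promoters held the letters. The share over all 32851 promoters, each counted singly, was 3.44%, so the measures are not the same. The letters thus occurred in both families. The STAT motif was found in 8.3% of all promoters, again counted singly. Among the groups described it was found in Tnfrsf9, Cish and Il7r, and also in Gbp7, Igtp and Irgm2, and the response element core was found in Socs1 as well. Of the 9 interleukin-2 and STAT5 genes, 7 had a promoter in the table and 2 of these held it. A match describes the letters in the window and is not a site.

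The lists of interferon genes were mostly on the positive side. The 21 named interferon-gamma genes include the guanylate-binding proteins, the immunity-related GTPases and Socs1 described above, so their count is not separate from those. Of the 21, 1 passed the test (Gbp3, against 0.0578% of all features), 19 were positive, against 61.6% of all named genes and 50.4% of all features, and the median was 0.44, which was 0.18 with 13 positive after quantile normalization. Of 29 named type I interferon genes, 0 passed by limma, 26 were positive and the median was 0.37, which was 0.16 with 22 positive after that step. Both lists consist mostly of genes that fell. Among the 208 named genes that fell on average, 148 were positive with a median of 0.26, and 103 with a median of -0.003 after that step. Ifitm3, which restricts entry of viruses, had a difference of 1.82 (0.95 to 2.68, adjusted p = 0.37). It stood at -1.79 and -1.29 in CD8 cells under blockade and 0.96 and 0.58 in untreated CD8 cells, against -0.97 and -0.58 in CD4 cells under blockade and 2.98 and 3.72 in untreated CD4 cells. Ifit3, an inhibitor of viral translation, had 1.11 (0.79 to 1.44, adjusted p = 0.054). Irf9, a transcription factor of the interferon response, had a difference of 0.01 (-0.30 to 0.33).

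**Figure D4:**
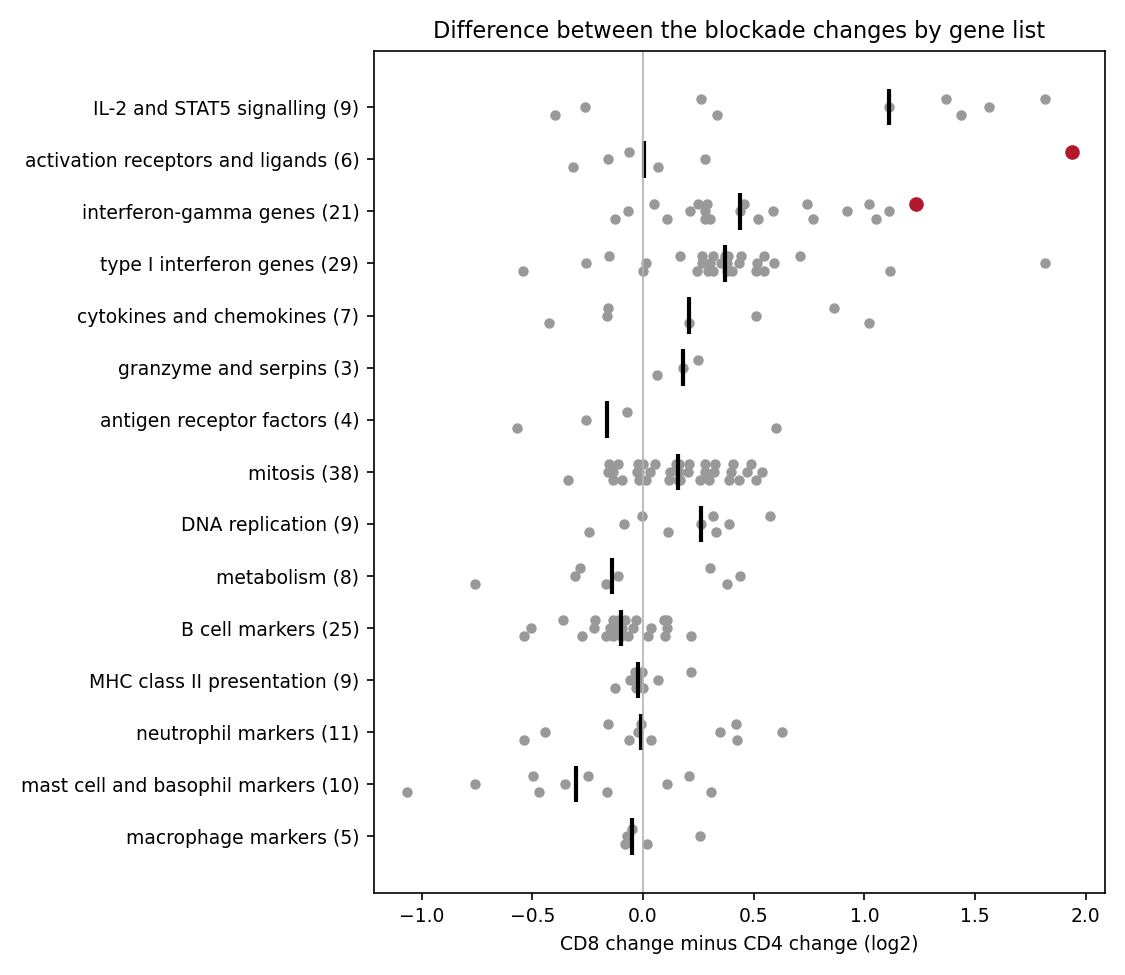
Subset difference (horizontal axis, log2) of each named member (points) and the median (bar) of 15 gene lists, with the number of named genes in brackets and members past the test in red. The interleukin-2 and STAT5 list has the highest median shown at 1.11, and the mast cell and basophil list the lowest shown at -0.30.

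Effector genes had differences on both sides of 0. Gzmb, granzyme B of the cytotoxic granule, stood at -2.15 and -2.44 in CD8 cells under blockade and 2.72 and 3.37 in untreated CD8 cells, against -2.51 and -3.55 in CD4 cells under blockade and 2.15 and 2.60 in untreated CD4 cells. It fell in both subsets, with changes of -5.34 in CD8 cells and -5.41 in CD4 cells, and the interval of the difference, -1.02 to 1.15, was wide, and the CD4 blockade arrays differed by more than 1 log2 unit. All 3 named genes of the granzyme and serpin list were positive, 0 passed by limma, and after quantile normalization 0 were positive. Of 7 named cytokine and chemokine genes, 0 passed by limma and 4 were positive. The differences were 1.02 for Cxcl10, a chemokine induced by interferon, 0.86 for Csf2, the growth factor GM-CSF, -0.42 for Ccl3, a chemokine of activated lymphocytes, and -0.16 for Penk, the enkephalin precursor. Csf2 stood at -0.72 and -0.91 in CD8 cells under blockade and 0.72 and 0.73 in untreated CD8 cells, against -1.02 and -0.80 in CD4 cells under blockade and 1.62 and 1.37 in untreated CD4 cells. The changes of Csf2 did not overlap between subsets, but its adjusted p was 0.37.

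Transcription factors induced by the antigen receptor did not pass either. Egr2 rose in both subsets, by 1.71 in CD8 cells and 2.28 in CD4 cells, with a difference of -0.57 (-1.11 to -0.03, adjusted p = 0.98). Nr4a3 had a difference of 0.60 (-0.05 to 1.26), and Nr4a2 had -0.26 (-1.06 to 0.55). Intervals of this width leave differences of about 1 log2 unit undecided for Egr2, Nr4a2 and Nr4a3.

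The sign of the cell cycle genes depended on which untreated CD4 array was used. Of 38 named mitosis genes, 0 passed by limma, 27 were positive and the median was 0.16. Without CD4 untreated array 2, one of the arrays with unusual spike-ins, 7 of 38 were positive and the median was -0.15, and without CD4 untreated array 1 all 38 were positive with a median of 0.46. The mean of the 38 genes was -0.86 and -0.78 in CD8 cells under blockade and 0.66 and 0.91 in untreated CD8 cells, against -0.69 and -0.80 in CD4 cells under blockade and 0.67 and 1.34 in untreated CD4 cells. Mki67, the proliferation marker Ki-67, had a difference of 0.12 (-0.44 to 0.68), and Top2a, a topoisomerase of dividing cells, had -0.03 (-0.63 to 0.58). Of the 9 DNA replication genes, 6 were positive with all arrays and 1 without CD4 untreated array 2. No direction is therefore given for proliferation genes. Of 8 named genes of metabolism and amino acid supply, 3 were positive, and Asns, asparagine synthetase, had the largest difference at -0.76 (-1.48 to -0.04, adjusted p = 0.98).

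Markers of other cell types did not pass the test for a subset difference by limma, in any of 5 lists. In a bulk sample, fewer cells of a type and less RNA per cell cannot be told apart. All 25 named B cell genes rose under blockade in CD8 cells (0.785% of all features rose) and in CD4 cells (1.39%). All 25 intervals of the difference lay within 1 log2 unit of 0, against 95.6% of all features and 64.4% of named genes. The mean of the 25 genes was 0.64 and 0.69 in CD8 cells under blockade and -0.73 and -0.85 in untreated CD8 cells, against 0.89 and 0.75 in CD4 cells under blockade and -0.79 and -0.69 in untreated CD4 cells. Pou2af1, a B cell transcriptional coactivator, had the largest difference at -0.54, and Cd72, a B cell surface receptor, had -0.50. The intervals of the 9 class II presentation genes also lay within 1 log2 unit of 0, with a median of -0.02. Of 5 macrophage genes 2 were positive, with Apoe, a lipid carrier, at 0.26. Intervals lay within 1 log2 unit of 0 for only 3 of 5 macrophage, 4 of 11 neutrophil and 4 of 10 mast cell and basophil genes. Larger differences are left undecided for the others. The erythroid list held 1 named gene, Tfrc, and no NK cell gene could be named.

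Of 10 mast cell and basophil genes, 7 were negative and the median was -0.30, which was -0.10 without CD4 untreated array 1, -0.13 without CD8 untreated array 2 and -0.48 without CD8 untreated array 1. The 3 naive and memory genes had a median of -0.26, lower than the mast cell list in some of these settings. Cpa3, mast cell carboxypeptidase, had the most negative difference of any named gene at -1.07 (-1.70 to -0.43, adjusted p = 0.66). Over the 15 alternative settings it lay between -2.19, after quantile normalization, and -0.77, without CD4 blockade array 1, and passed in 0 (lowest adjusted p 0.068). It stood at -2.60 and -2.56 in CD8 cells under blockade and 2.45 and 2.86 in untreated CD8 cells, against -1.90 and -2.49 in CD4 cells under blockade and 2.04 and 1.90 in untreated CD4 cells. Untreated CD8 cells were the highest group, in contrast to Dnah7b. Cma1, mast cell chymase, had -0.76. Among 11 neutrophil genes 5 were positive and 6 negative, with a median of -0.01. Their differences ran from -0.54 for Mpo, myeloperoxidase, to 0.63 for Ltf, lactotransferrin. The named genes most like Cpa3 over the 8 arrays were Mpo (Pearson r = 0.993), Ctsg (0.992) and Fcer1a (0.992). The part of these cells in the subset differences was not tested.

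Over the 289 named genes, the estimated blockade effect had the same sign in both subsets for each. Because the genes were selected on these arrays, the shared sign is no independent evidence of a like response. The 3 probe sets past the test that fell in CD4 cells and rose in CD8 cells were all outside the authors' list. Of the 208 that fell on average, 148 fell more in CD4 cells and 60 fell more in CD8 cells, with median changes of -1.48 in CD8 cells and -1.78 in CD4 cells. That excess rests partly on CD4 untreated array 2: without it the count was 114 of 208, and after quantile normalization 103 of 208. Of the 81 that rose, 30 rose more in CD8 cells and 51 rose more in CD4 cells. On the whole array, 1084 of the 1700 probe sets that fell in the mean of both subsets (3.77% of all) fell more in CD4 cells. Of the 1567 that rose in that mean, 568 rose more in CD8 cells. The subset difference was positive for 50.4% of all features. These whole-array counts were not repeated in the alternative settings.

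**Figure D5:**
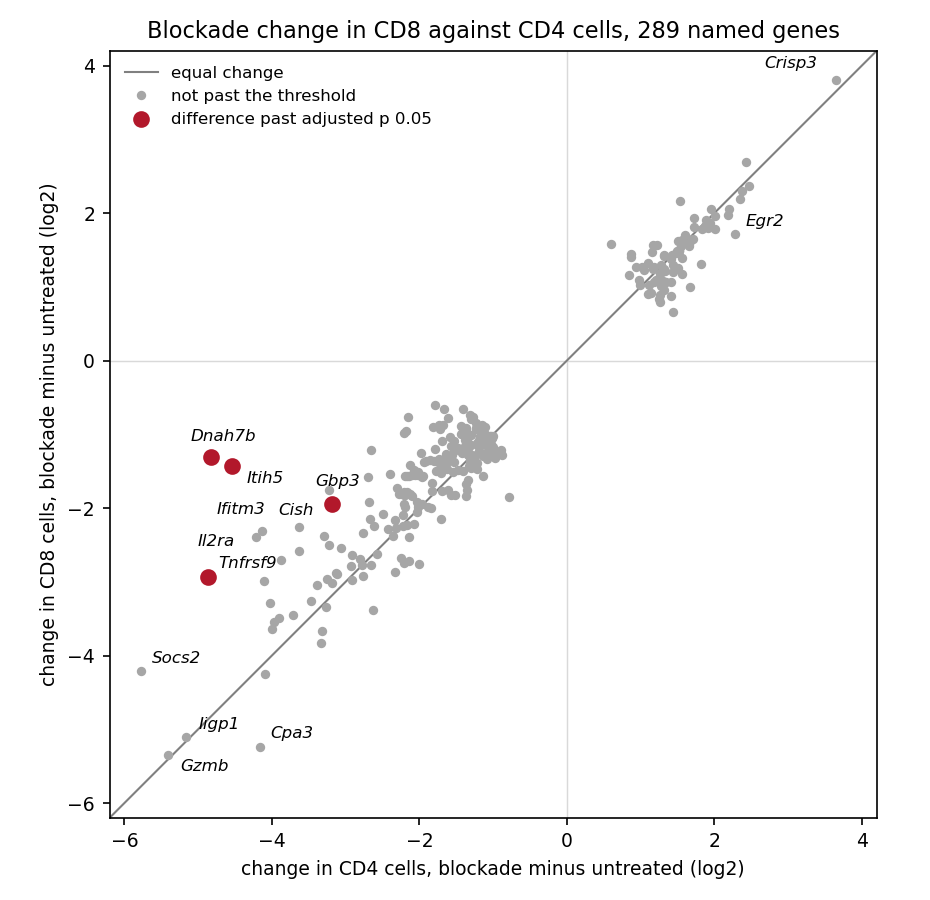
Blockade change in CD8 cells (vertical axis, log2) against blockade change in CD4 cells (horizontal axis, log2) for the 289 named genes, with the line of equal change. The 4 genes past the test, in red, lie above the line among the genes that fell, and 148 of the 208 fallers lie above it.

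The 95% interval of the subset difference lay within 1 log2 unit of 0 for 186 of 289 named genes (64.4%), against 95.6% of all features. It lay within 0.5 log2 units for 31 of 289. Among those with the largest mean effect were Iigp1, Irgm2, Ctsg, Igtp and Irf9, which fell, and Pik3ap1 and Fcmr, which rose. Ctsg, cathepsin G of myeloid granules, fell in both subsets, with changes of -2.98 in CD8 cells and -2.91 in CD4 cells (-0.45 to 0.33 for the difference). Pik3ap1, a B cell adaptor of phosphoinositide 3-kinase, rose by 1.87 in CD8 cells and by 1.93 in CD4 cells. Fcmr, the receptor for IgM, rose by 1.91 in CD8 cells and by 1.89 in CD4 cells. Crisp3, a secreted protein of the CAP family, had a difference of 0.16 with rises of 3.80 in CD8 cells and 3.64 in CD4 cells.

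Most of the called probe sets could not be named. Of the 28, 6 were in the authors' deposited list and belonged to Dnah7b, Itih5, Tnfrsf9, Socs1 and Gbp3, and 22 were not listed, among them both negative ones. The probe set 1424800_at had the largest difference on the array, 3.99 ± 0.40 (adjusted p = 0.014). It stood at -0.18 and -0.40 in CD8 cells under blockade and 0.51 and 0.18 in untreated CD8 cells, against -0.21 and -0.20 in CD4 cells under blockade and 3.91 and 4.93 in untreated CD4 cells. The next probe set without a name, 1441946_at, had 2.98, with changes of -0.77 in CD8 cells and -3.75 in CD4 cells. Both had the order of Dnah7b, high on the untreated CD4 arrays.

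The 2 negative probe sets had other orders. 1450495_a_at fell in CD8 cells, where it stood at 0.49 and 0.73 under blockade and 2.51 and 2.70 untreated, against -0.88 and -0.59 in CD4 cells under blockade and -0.63 and -0.49 in untreated CD4 cells (difference -1.82, adjusted p = 0.021). 1460118_at rose in CD4 cells, and stood at 0.19 and -0.18 in CD8 cells under blockade and -0.59 and -0.55 in untreated CD8 cells, against 2.34 and 2.28 in CD4 cells under blockade and -0.07 and 0.07 in untreated CD4 cells (difference -1.74, adjusted p = 0.019). Untreated CD8 cells were highest for the first of these, and CD4 cells under blockade for the second.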

How the data were processed

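RNA of sorted cells was measured on 8 Affymetrix Mouse430_2 arrays, and groups and replicate numbers were taken from the sample titles. The deposited table held log2 values of 45101 probe sets, centred by the authors on each row's median; log2 is an assumption, since neither labels nor headers state a log base or how probe sets were summarized and normalized, and another base would scale every difference by one factor and change no p-value. After 64 control probe sets were dropped, 45037 were tested. The authors' list of 409 probe sets gave the names: 375 had 1 gene, 289 genes in all, and 33 symbols were updated through a RefSeq table. A gene's listed probe sets were averaged, which left 44951 features.

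A mean per group was fitted in limma 3.58.1 (R 4.3.3) and eBayes. Tests were two-sided, and p-values were Benjamini-Hochberg adjusted across every feature (threshold 0.05, 4 residual and 4.46 prior degrees of freedom). Intervals are 95% intervals of this fit. Changes did not overlap where the 4 array-by-array changes in CD8 cells all lay on one side of the 4 in CD4 cells. The comparison, the gene lists and the rule for named genes (genes past the test, 2 to 4 largest differences per list, genes with narrow intervals, genes of related comparisons) were chosen with earlier results of these data known; families and other list members were named after their values were seen. The number of arrays limits the precision. Alternatives were a replicate block, quantile normalization of the row-centred values, median centring, array weights, robust and unmoderated tests, other thresholds and arrays left out. One gene that the rule names is not reported here.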

Additional observations from a re-analysis of the deposited data

Results flagged for a closer look

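The blockade change differed between CD8 and CD4 cells by the test of the difference itself for 28 probe sets. Among named genes, with listed probe sets averaged, Dnah7b (subset difference 3.51), Itih5 (3.11), Tnfrsf9 (1.94) and Gbp3 (1.23) passed, all with a smaller fall in CD8 cells. A probe set of Socs1 was also among the 28 (1.51), but the average of that gene did not pass. Of the probe sets without a name, the most positive were 1424800_at (3.99) and 1441946_at (2.98), which fell in CD4 cells, and the negative ones were 1450495_a_at (-1.82), which fell in CD8 cells, and 1460118_at (-1.74), which rose in CD4 cells. With 2 arrays per group, no group was large enough for a check of single outlying arrays.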

How the results depend on the processing

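The count of 28 probe sets was 29 with array median centring, 27 with robust eBayes, 26 with array weights, 19 after quantile normalization (15 shared), 9 at an adjusted p of 0.01, 54 at 0.1, 1 with the unmoderated test (2306 at an unadjusted p under 0.05) and 0 without both arrays with unusual spike-ins. Leaving out 1 array gave 5 to 26 probe sets, 1 to 5 named genes in place of 4, and 0 to 2 lists with a called member in place of 2. Calls of the blockade effect, 1016 in CD8 and 1650 in CD4 cells, were 215 and 583 with the unmoderated test, 372 and 634 without both arrays, and 502 to 890 and 768 to 1516 with 1 array left out. Named genes past the test were 0 with the unmoderated test and 0 without both arrays; lists with a called member were 1 with the replicate block, 1 after quantile normalization, 1 with array weights, and 0 in those other 2 settings. Iigp1 reversed after quantile normalization (-1.67, adjusted p = 0.020); the cause was not tested. Over 78 genes and 15 alternatives, 88 of 1170 values changed sign, 1 of them past the threshold. Values under the replicate block, array weights, robust and unmoderated tests equal the main estimates and could not change sign. Replicate numbers were not shown to pair arrays, as the 6 correlations of deviations were -0.03 to 0.08; with the numbers as a replicate block 26 probe sets passed, 22 of them shared, Cish passed (adjusted p = 0.047), and Tnfrsf9 (0.072) and Gbp3 (0.075) did not. A group left with 1 array was assumed to vary like the others. Counts of fallers and of list signs under each setting were added after seeing the data.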
